A study of Homo sapiens with 8 samples.

Results

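The mucin genes are 7 genes, MUC1, MUC2, MUC5AC, MUC5B, MUC6, MUC16 and MUC20, of the 58688 genes counted in RNA-seq libraries of LM2 cells, a human breast cancer line derived from MDA-MB-231 that forms lung metastases. They were found by symbol, and the family was chosen by measured values of the knockdown libraries, in which MUC5AC and MUC5B stood higher with both ABL kinases knocked down than with scrambled shRNA, so the knockdown levels below are a description with no test. The 8 libraries fall into 2 experiments. In the first, cells were given the solvent DMSO or the kinase inhibitor Ponatinib (1 µmol/L, harvest after 6 h), with 2 libraries each. In the second, stable lines were made with lentivirus carrying scrambled shRNA (shCtrl), an shRNA to ABL1, an shRNA to ABL2 or both (the double knockdown), with 1 library each and 1 hairpin per kinase. All were LM2 cells cultured in DMEM with FBS, and nothing in the labels says whether repeat libraries came from separate cultures, so the p-values below measure the spread between these libraries. In these bulk libraries, fewer cells making a transcript and less of it per cell cannot be told apart.

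Mucins are proteins densely covered with O-linked sugars on stretches rich in serine, threonine and proline. The gel-forming mucins MUC2, MUC5AC, MUC5B and MUC6 are secreted and give mucus its body: MUC5AC and MUC5B are the main mucins of the airway, MUC2 of the intestine and MUC6 of the stomach glands. MUC1, MUC16 and MUC20 are anchored in the cell membrane, and MUC1 and MUC16 carry the tumor antigens CA15-3 and CA125 that are followed in breast and ovarian cancer.

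The 4 gel-forming genes stand side by side on chromosome 11 (GRCh38, GENCODE positions). MUC6 (ENSG00000184956.12) spans chr11:1012823-1036718 on the minus strand, MUC2 (ENSG00000198788.8) chr11:1074875-1110511, MUC5AC (ENSG00000215182.7) chr11:1157953-1201138 and MUC5B (ENSG00000117983.14) chr11:1223066-1262172, all 3 on the plus strand. The gaps between them are 38.2 kb, 47.4 kb and 21.9 kb. AP2A2 ends 0.577 kb before MUC6, and TOLLIP ends 12.2 kb after MUC5B on the opposite strand. MUC1 (ENSG00000185499.13) is on chr1:155185824-155192916 on the minus strand, MUC16 (ENSG00000181143.12) on chr19:8848844-9010390 on the minus strand and MUC20 (ENSG00000176945.13) on chr3:195720884-195741123 on the plus strand.

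Serine, threonine or proline codons made up 45.5% of MUC5AC (5654 codons), 41.8% of MUC5B (5762 codons), 40.3% of MUC6 (2439 codons) and 36.4% of MUC1 (475 codons), against a median of 18.6% over 18851 coding genes. In MUC16 and MUC20 the share was 44.6% and 42.2%, and MUC2 was not analysed here. Of all stretches of 50 coding bases, 30.3% occurred more than once within MUC5B, 26.4% within MUC20, 22.1% within MUC5AC, 1.93% within MUC6, 1.08% within MUC16 and 0% within MUC1. These shares and the codon shares describe the reference transcript used for each gene, and repeats that it lacks are not counted. In the MUC1 transcript a 24-base unit occurred 2 times, so its 0% does not mean that MUC1 has no repeats. Below is the 24-base unit in reading frame that was found most often in each of the 3 gel-forming genes analysed, shown because the repeats are where the sugars attach, with the codons for serine and threonine in capitals.
MUC5AC, chr11:1185244-1185267, plus strand: gctcctACAACCAGCACAACCTCT
MUC5B, chr11:1242578-1242601, plus strand: ACTccggggACGACCtggatcctc
MUC6, chr11:1018490-1018513, minus strand: ACCACTACCtatccaACCccaTCA
The MUC5AC unit occurred 15 times without a change in the coding sequence, and its first copy lies in exon 31 of 49. The MUC5B unit occurred 6 times, first in exon 31 of 49, and the MUC6 unit 4 times, first in exon 31 of 33. The MUC5B unit lies within the span of the antisense gene MUC5B-AS1 (chr11:1242261-1249676), which was listed at 0 counts in all 8 libraries.

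The RefSeq promoter table (GRCh38.p14) held MUC1, MUC2 and MUC16 and no entry for MUC5AC, MUC5B, MUC6 or MUC20. The 250 bases before the start of MUC1 and of MUC2 are shown because these 2 genes stood on opposite sides of shCtrl in the ABL1 shRNA and double knockdown libraries. Capitals mark matches on either strand. The TATA box was searched as TATAAA and the GC box as GGGCGG. The E-box that SNAI and ZEB factors bind was searched as CACCTG. The AP-1 site was searched as TGACTCA and the forkhead site as TGTTTAC.
MUC1, chr1:155192916-155193165, minus strand: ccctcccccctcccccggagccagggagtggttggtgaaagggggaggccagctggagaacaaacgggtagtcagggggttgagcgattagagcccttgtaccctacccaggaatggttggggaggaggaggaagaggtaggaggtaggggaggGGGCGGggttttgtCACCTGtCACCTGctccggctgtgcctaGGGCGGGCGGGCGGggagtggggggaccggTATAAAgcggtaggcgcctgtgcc
MUC2, chr11:1074624-1074873, plus strand: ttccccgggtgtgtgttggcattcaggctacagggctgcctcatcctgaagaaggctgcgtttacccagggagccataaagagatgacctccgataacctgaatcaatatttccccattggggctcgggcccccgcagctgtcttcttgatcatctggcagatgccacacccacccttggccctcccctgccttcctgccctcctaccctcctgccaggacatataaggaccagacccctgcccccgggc
The MUC1 window had a GC content of 66%, TATAAA with its first base 24 bases before the start, CACCTG at 82 and 75 bases and GGGCGG at 96, 54, 50 and 46 bases before it, of which the last 3 overlap each other. The MUC2 window had a GC content of 59.6% and none of the 5 strings, and that of MUC16 held 1 GC box on the opposite strand. The MUC16 window, chr19:9065752-9066001, does not adjoin the GENCODE span of the gene given above, which on the minus strand starts at 9010390. Among 27305 promoter windows, TATAAA was found in 11.1%, GGGCGG in 42.3%, CACCTG in 17.5%, TGACTCA in 4.16% and TGTTTAC in 2.98%. These matches describe the sequence only.

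The libraries held between 7568934 and 13010896 reads on genes, so that 3 reads, taken as the limit of detection, stand for 0.231 to 0.396 CPM, the counts of a gene per 1000000 counts on all genes of that library. A header cell inside the shCtrl file reads as the ABL1 knockdown and one inside the ABL1 shRNA file as the control, and the libraries are used here under their labels. The targeted genes were low where the labels place them. In the order shCtrl, ABL1 shRNA, ABL2 shRNA and double knockdown, ABL1 had 186, 72.6, 205 and 111 CPM, and ABL2 had 231, 212, 94.5 and 149 CPM. Both kinases were thus less reduced in the double knockdown (ratios to shCtrl of 0.595 for ABL1 and 0.646 for ABL2) than by the single shRNAs (0.390 and 0.408). The mesenchymal marker VIM had a mean of 2599 CPM, PGR was at 0 in all libraries and the leukocyte marker PTPRC reached at most 3 counts. The epithelial marker CDH1 had 23 and 20 counts with ABL1 shRNA and in the double knockdown and 0 to 4 counts in the other 6 libraries. EPCAM, also an epithelial marker, had 105, 96, 73 and 61 counts in shCtrl, ABL1 shRNA, ABL2 shRNA and the double knockdown. In the last, unlike CDH1, it stood below shCtrl (ratio 0.561, 95% counting interval 0.403 to 0.777). ESR1, the estrogen receptor gene, had 8, 11, 9 and 3 counts in the same order. The part of CDH1 expression in the mucin results was not tested. The 2 experiments stand apart: 68 genes with 100 or more counts throughout the Ponatinib experiment had 0 in every shRNA library, and 0 genes the reverse. Levels are therefore compared within each experiment and given side by side across them.

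MUC5AC and MUC5B took most of the mucin reads in the shRNA libraries. MUC5AC had 611 counts (52.6 CPM, 95% counting interval 48.5 to 57.0) in shCtrl, 4383 (337 CPM, 327 to 347) in ABL1 shRNA, 1420 (114 CPM, 108 to 120) in ABL2 shRNA and 3691 (307 CPM, 297 to 317) in the double knockdown. It was lowest in shCtrl and highest with ABL1 shRNA, and the 4 intervals did not overlap. These intervals, like those below, cover counting error only and say nothing of the spread between cultures. MUC5B had 1993 counts (172 CPM, 164 to 179) in shCtrl, 8732 (671 CPM, 657 to 685) with the ABL1 hairpin, 4425 (355 CPM, 345 to 366) with the ABL2 hairpin and 7027 (585 CPM, 571 to 599) in the double knockdown. The 4 libraries stood in the same order as for MUC5AC.

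**Figure D1:**
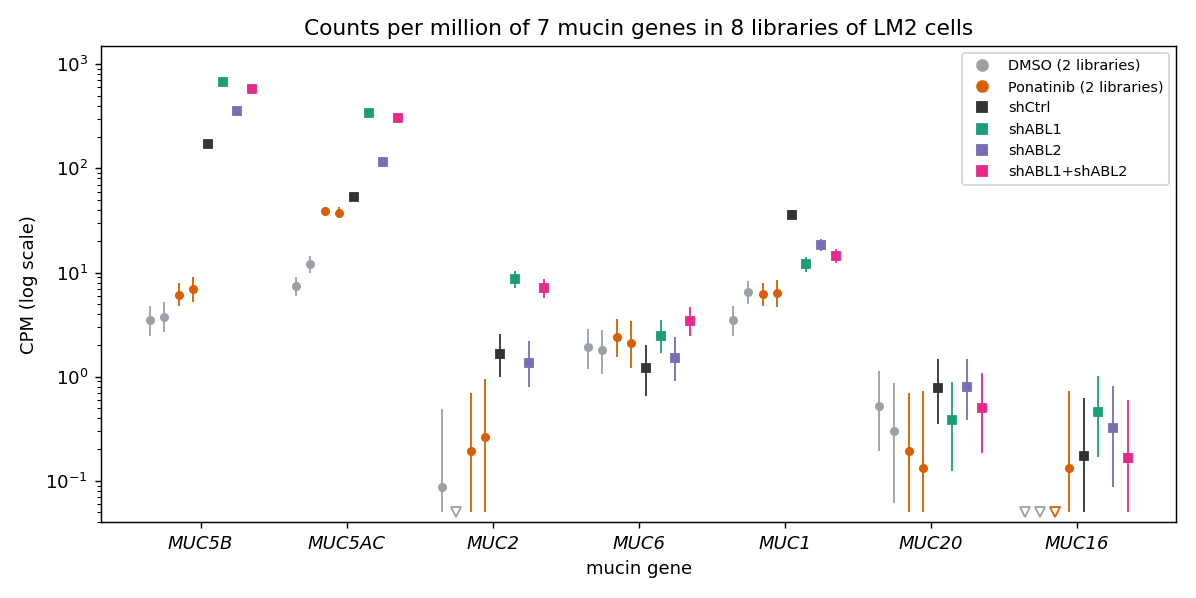
CPM (log axis) of the 7 mucin genes in each of the 8 libraries; circles are DMSO and Ponatinib libraries, squares the shRNA libraries, bars the 95% counting interval of each library and open triangles libraries with 0 counts, drawn at the lower edge of the axis. MUC5B and MUC5AC lie above 50 CPM in all 4 shRNA libraries and MUC1 is highest in shCtrl, while MUC16 and MUC20 stay near the detection limit.

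Relative to shCtrl, MUC5AC was 5.84-fold higher in the double knockdown (5.36 to 6.37), 6.40-fold higher with ABL1 shRNA (5.88 to 6.98) and 2.17-fold higher with ABL2 shRNA (1.97 to 2.39). MUC5B was 3.41-fold higher in the double knockdown (3.24 to 3.58), 3.91-fold higher with ABL1 shRNA (3.72 to 4.11) and 2.07-fold higher with ABL2 shRNA (1.96 to 2.18). All 3 ratios of a gene share the shCtrl library. Among the 15194 genes with a mean of at least 10 counts over the shRNA libraries, ordered from the highest ratio, MUC5AC stood at place 16 in the double knockdown, 14 with ABL1 shRNA and 439 with ABL2 shRNA. MUC5B stood at places 73, 64 and 527. Set directly against the single knockdowns, the double knockdown had 2.70 times the MUC5AC level of ABL2 shRNA (2.53 to 2.87) and 0.912 times that of ABL1 shRNA (0.873 to 0.953). For MUC5B these ratios were 1.65 (1.59 to 1.71) and 0.872 (0.844 to 0.899), so neither gene was higher in the double knockdown than with ABL1 shRNA.

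MUC2 and MUC6, the other gel-forming genes, were scarce but differed between the shRNA libraries as well. MUC2 had 19 counts (1.64 CPM) in shCtrl, 113 (8.69 CPM) in ABL1 shRNA, 17 (1.36 CPM) in ABL2 shRNA and 85 (7.08 CPM) in the double knockdown. The libraries with ABL1 shRNA, alone or with ABL2 shRNA, were high and the other 2 were low. The ratio to shCtrl was 4.32 in the double knockdown (2.61 to 7.53), 5.31 with ABL1 shRNA (3.25 to 9.14) and 0.834 with ABL2 shRNA (0.407 to 1.69). MUC6 had 14, 32, 19 and 41 counts in the same order of libraries, or 1.21, 2.46, 1.53 and 3.41 CPM. It was highest in the double knockdown, at 2.83 times shCtrl (1.51 to 5.62), with ratios of 2.04 (1.06 to 4.14) for ABL1 shRNA and 1.26 (0.601 to 2.73) for ABL2 shRNA. The MUC6 intervals of the double knockdown and of ABL1 shRNA overlapped, and their direct ratio was 1.39 (0.853 to 2.28).

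The membrane mucin MUC1 stood lower in each knockdown than in shCtrl. It had 416 counts (35.8 CPM, 32.5 to 39.4) in shCtrl, 156 (12.0 CPM, 10.2 to 14.03) in ABL1 shRNA, 230 (18.5 CPM, 16.2 to 21.0) in ABL2 shRNA and 174 (14.5 CPM, 12.4 to 16.8) in the double knockdown. The shCtrl interval lay above the others, and the intervals of the double knockdown overlapped those of both single knockdowns. The direct ratio of the double knockdown was 0.784 (0.640 to 0.959) to ABL2 shRNA, an interval that leaves out 1, and 1.21 (0.968 to 1.51) to ABL1 shRNA. The ratio to shCtrl was 0.404 (0.337 to 0.484) in the double knockdown, 0.335 (0.277 to 0.403) with ABL1 shRNA and 0.515 (0.437 to 0.607) with ABL2 shRNA, and MUC1 stood at places 15066, 15096 and 14855 of 15194. MUC20, which is described as a partner of the receptor MET, had 9, 5, 10 and 6 counts in shCtrl, ABL1 shRNA, ABL2 shRNA and the double knockdown, with ratios to shCtrl between 0.496 and 1.04 whose intervals all included 1. MUC16 had 2, 6, 4 and 2 counts, and its ratio for ABL1 shRNA was 2.68 with an interval of 0.479 to 27.1. No difference in MUC16 or MUC20 was detectable at this depth.

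**Figure D2:**
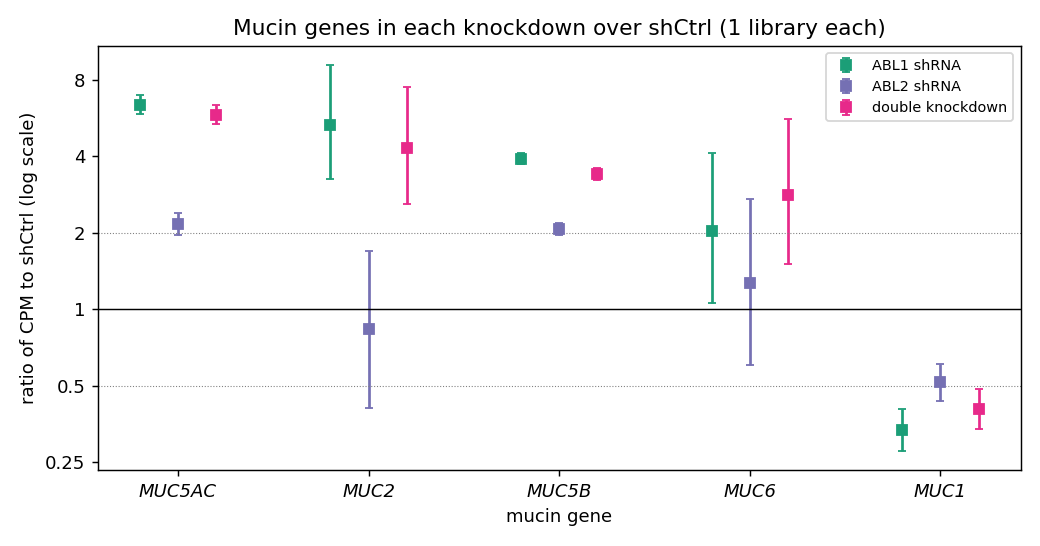
Ratio of CPM to shCtrl (log axis) of the 5 mucin genes with a mean of at least 10 counts in the shRNA libraries, for ABL1 shRNA, ABL2 shRNA and the double knockdown; bars are 95% counting intervals and dotted lines mark 2-fold. MUC5AC and MUC5B lie above the upper dotted line in all 3, MUC2 and MUC6 in the ABL1 shRNA and double knockdown libraries, and MUC1 lies below 1 in all 3.

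Of the 7 genes, 5 passed the minimum of 10 counts on average. With 0.5 counts added to both libraries, 4 of the 5 were over 2-fold higher and 1 over 2-fold lower in the double knockdown, where 3.68% of the 15194 genes were over 2-fold higher and 2.09% over 2-fold lower. With ABL1 shRNA, 4 were over 2-fold higher and 1 lower, against 3.73% and 2.98% of all genes. MUC6 lay at the 2-fold line in that library, and with TMM factors or DESeq2 size factors it was no longer past it once the 0.5 counts were added, which left 4 mucin genes past 2-fold in place of 5. With ABL2 shRNA, 2 were over 2-fold higher and 0 lower, against 3.92% and 1.99% of all genes. Since these libraries chose the family, nothing is read from these shares.

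The makeup of the mucin transcripts also differed between libraries. Together the 7 genes took 264 CPM in shCtrl, 1032 in ABL1 shRNA, 492 in ABL2 shRNA and 918 in the double knockdown. MUC5B held 65.0%, 65.0%, 72.2% and 63.7% of these reads, and MUC5AC 19.9%, 32.6%, 23.2% and 33.5%. Per kilobase of exon (RPKM), MUC5B was at 3.06 times the MUC5AC level in shCtrl, 1.87 times with ABL1 shRNA, 2.92 times with ABL2 shRNA and 1.79 times in the double knockdown. On that scale MUC1 led in shCtrl with 14.9 RPKM, ahead of MUC5B with 9.23 and MUC5AC with 3.02. With ABL1 shRNA MUC5B led with 36.1 RPKM, ahead of MUC5AC with 19.3 and MUC1 with 4.99, and in the double knockdown the levels were 31.4, 17.6 and 6.03 RPKM in the same order. With ABL2 shRNA MUC5B had 19.1, MUC1 7.69 and MUC5AC 6.53 RPKM. RPKM counts all exon bases alike, and how reads were placed in the repeats of MUC5B and MUC5AC was not tested. The order of genes by RPKM, here and below, is therefore approximate. By CPM, MUC5B was the 144th most abundant gene with ABL1 shRNA and the 177th in the double knockdown, against the 1189th in shCtrl and the 396th with ABL2 shRNA.

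The genes on either side of the cluster were set beside it. MUC6, MUC2, MUC5AC and MUC5B had log2 ratios of 1.501, 2.11, 2.55 and 1.77 in the double knockdown and of 1.03, 2.41, 2.68 and 1.97 with ABL1 shRNA. With ABL2 shRNA the values were 0.34, -0.26, 1.12 and 1.05. AP2A2, which encodes a subunit of the clathrin adaptor AP-2, had 0.26 in the double knockdown, 0.00 with ABL1 shRNA and 0.09 with ABL2 shRNA. TOLLIP, an inhibitor of Toll-like receptor signaling, had 0.13, 0.22 and -0.04. Farther out, CD151, POLR2L, TSPAN4, CHID1, BRSK2 and MOB2 lay between -0.41 and 0.69 in all 3 knockdowns. DUSP8, a MAP kinase phosphatase whose midpoint is 405 kb from the start of MUC5AC, was the 1 neighbor of the 9 with enough counts that passed 2-fold, at -1.96, -2.99 and -1.85, from 64 counts in shCtrl to 17, 9 and 19. The double knockdown was over 2-fold above shCtrl in 4 of 4 cluster genes and 0 of 9 neighbors, against 3.68% of all genes, and since MUC5AC and MUC5B were chosen for their high level in that library, nothing is read from this contrast.

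**Figure D3:**
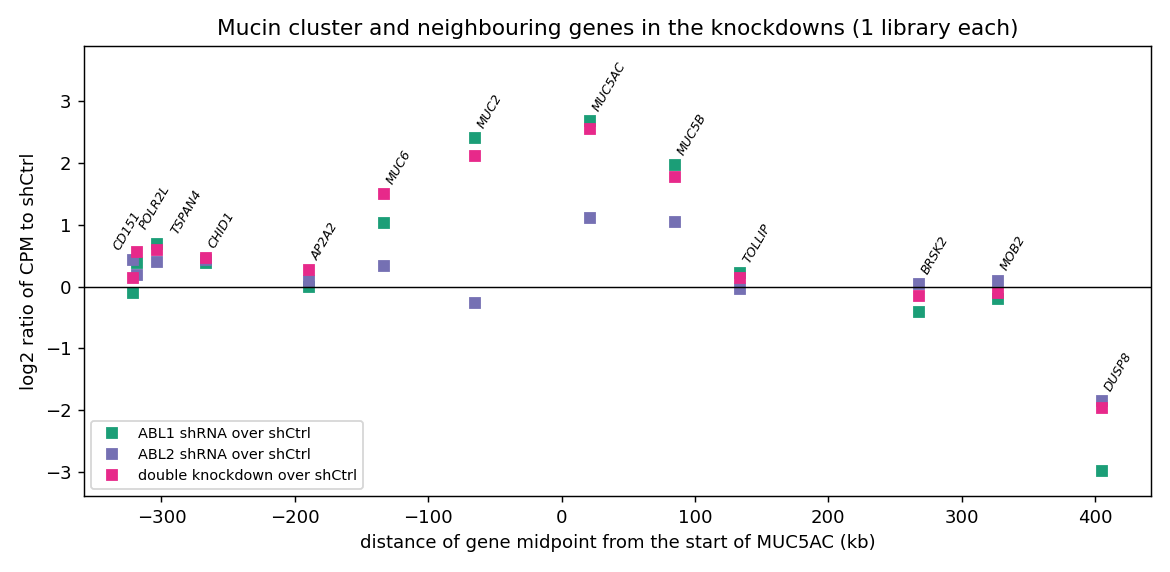
Log2 ratio of CPM to shCtrl for the 4 gel-forming mucin genes and 9 neighboring genes on chromosome 11, against the distance of each gene's midpoint from the start of MUC5AC in kb; each square is 1 knockdown library over the shCtrl library. The mucin genes reach 2.68, the flanking genes AP2A2 and TOLLIP lie between 0.00 and 0.26, apart from TOLLIP with ABL2 shRNA at -0.04, and DUSP8 lies below -1.8.

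The Ponatinib experiment has replicates, and the rule that chose the mucin genes did not use its values, although the genes and lists were settled with earlier results of all 8 libraries known. MUC5AC rose. It had 85 and 121 counts in the DMSO libraries (7.39 and 12.0 CPM) and 403 and 285 counts in the Ponatinib libraries (38.7 and 37.7 CPM). Both Ponatinib libraries stood above both DMSO libraries, and the DMSO libraries differed from each other more than the Ponatinib libraries did. After TMM normalization the mean was 9.86 ± 3.34 CPM (SD, n = 2) with DMSO and 37.6 ± 0.862 CPM (SD, n = 2) with Ponatinib, and the log2 fold change was 1.95 ± 0.15 (SE) with an adjusted p of 2.23e-07 in the quasi-likelihood test of edgeR, adjusted over 16031 genes by the Benjamini-Hochberg method. MUC5AC stood at place 77 of these genes from the highest fold change. It was the 1 mucin gene among the differentially expressed genes (DEGs), defined as over 2-fold with an unadjusted p under 0.05, a class that held 3.19% of the genes tested in the upward direction. The knockdown target ABL2 was also a DEG, in the downward direction. It had a mean of 320 TMM-normalized CPM with DMSO and 158 with Ponatinib (log2 fold change -1.02, adjusted p 8.56e-08 in edgeR). ABL1 had a log2 fold change of 0.19 (adjusted p 0.0287 in edgeR).

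MUC5B rose less. It had 40 and 38 counts with DMSO (3.48 and 3.78 CPM) and 64 and 53 with Ponatinib (6.15 and 7.002 CPM). The groups did not overlap. The log2 fold change was 0.80 ± 0.21 (SE), with an adjusted p of 0.00936 in edgeR's quasi-likelihood test. That call was lost when the first DMSO library was left out (log2 fold change 0.74, adjusted p 0.0761 in edgeR) and with the Wald test of DESeq2 (0.81, adjusted p 0.108). The counts behind MUC5B here are few, at most 64 in a library, against 1993 or more in the shRNA libraries.

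MUC1 had 40 and 65 counts with DMSO (3.48 and 6.47 CPM) and 65 and 48 with Ponatinib (6.25 and 6.34 CPM). The Ponatinib libraries fell within the range of the DMSO libraries. The log2 fold change was 0.32 ± 0.25 (SE), with an adjusted p of 0.378 in edgeR's quasi-likelihood test. The value turned to -0.08 (adjusted p 0.867 in edgeR) without the first DMSO library and came to 0.81 (adjusted p 0.0409 in edgeR) without the second. In these fits without a DMSO library, as in that for MUC5B, the remaining DMSO library is assumed to vary like the Ponatinib pair. Their p then rests on the spread of that pair together with the spread that edgeR pools over genes. The pairs did not vary alike over all genes. Chi-square per degree of freedom, a measure of spread against counting error, was 1.44 for the DMSO pair and 3.12 for the Ponatinib pair. MUC6 had 22 and 18 counts with DMSO (1.91 and 1.79 CPM) and 25 and 16 with Ponatinib (2.40 and 2.11 CPM), a log2 fold change of 0.25 ± 0.30 (SE) with an adjusted p of 0.584 in the same test. MUC2 had 1 and 0 counts with DMSO and 2 and 2 with Ponatinib, MUC20 had 6 and 3 against 2 and 1, and MUC16 had 0 in all but 1 Ponatinib library, which had 1. These 3 genes did not pass the filter on low counts and were not tested. Of the 4 that passed, 2 rose and 0 fell at an adjusted p under 0.05, where 15.0% of all genes tested rose and 15.7% fell.

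**Figure D4:**
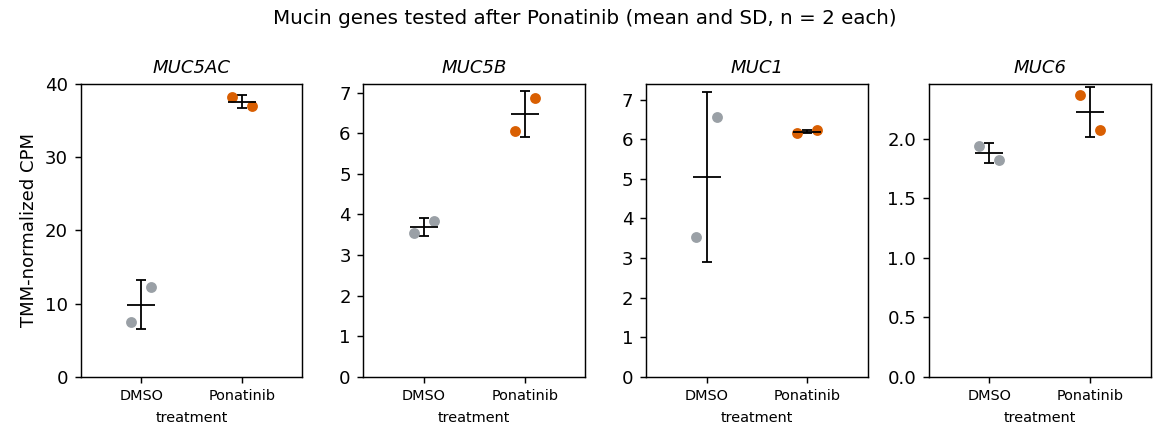
TMM-normalized CPM of the 4 mucin genes tested in the Ponatinib experiment, each panel with its own axis from 0; points are libraries, the horizontal line is the mean and the bars are the SD of 2 libraries. The 2 Ponatinib libraries lie above both DMSO libraries for MUC5AC, MUC5B and MUC6, by a narrow margin for MUC6, and within their range for MUC1.

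Per kilobase of exon, MUC1 led the family with DMSO (1.45 and 2.69 RPKM), ahead of MUC5AC (0.423 and 0.690), MUC6 (0.227 and 0.212) and MUC5B (0.187 and 0.203). The counting intervals of MUC6 and MUC5B overlapped. With Ponatinib MUC1 had 2.60 and 2.64 RPKM and MUC5AC 2.22 and 2.16 RPKM, with overlapping intervals. MUC5AC held 43.8% and 49.4% of the mucin reads with DMSO and 71.8% and 70.2% with Ponatinib, while MUC5B held 20.6% and 15.51% and then 11.4% and 13.1%. The RPKM ratio of MUC5B to MUC5AC was thus between 0.149 and 0.441 in these 4 libraries, and between 1.79 and 3.06 in the 4 shRNA libraries.

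Of 16 other mucin and mucin-like genes, 6 were at 0 in all 8 libraries, and 11, these 6 included, had at most 3 counts in every library. Only 4 had enough counts in the shRNA libraries, with a median log2 ratio of 0.14 in the double knockdown against 0.05 over all genes. MUC15, a membrane mucin, had 80 counts in shCtrl and 92 in the double knockdown, a ratio of 1.11 (0.815 to 1.52). MCAM, an adhesion molecule listed with the mucins, had a ratio of 1.46 (1.31 to 1.64). CD164, a sialomucin, had a ratio of 0.716 (0.673 to 0.763) and passed 2-fold with ABL2 shRNA, at 0.419 (0.389 to 0.451). After Ponatinib 2 of the 4 tested rose, where 15.0% of all genes did, MCAM with a log2 fold change of 0.29 (adjusted p 0.0208 in edgeR) and CD164 with 0.17 (adjusted p 0.0462 in edgeR).

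The goblet programme list holds 30 genes that goblet and other mucus-secreting cells express. Of the list, CLCA1, CLCA4, AGR3, SCGB1A1, SCGB3A1, BPIFA1, BPIFB1, ITLN1 and REG4 were at 0 in all 8 libraries, and 13 of the 30 had at most 3 counts in every library, these 9 included. Of the 14 with enough counts, 4 were over 2-fold above shCtrl in the double knockdown and 0 below, against 3.68% and 2.09% of all genes, with a median log2 ratio of 0.37 against 0.05 over all genes. With each single shRNA 3 were over 2-fold higher and 0 lower, where 3.73% of all genes with ABL1 shRNA and 3.92% with ABL2 shRNA were higher. SPDEF, the transcription factor that drives goblet cell differentiation, had 21, 83, 56 and 69 counts in shCtrl, ABL1 shRNA, ABL2 shRNA and the double knockdown, and in the last its ratio was 3.18 (1.92 to 5.45). AGR2, the disulfide isomerase that helps fold mucins in the endoplasmic reticulum, had 18, 112, 53 and 55 counts and a ratio of 2.95 (1.71 to 5.34) in the double knockdown. The intervals of both genes lay above 1 in all 3 knockdowns. DMBT1, a mucin-like scavenger protein, had 97, 441, 172 and 397 counts and a ratio of 3.96 (3.16 to 4.99). ANO1, a chloride channel of secretory epithelia, had 25, 51, 51 and 60 counts and a ratio of 2.32 (1.43 to 3.86). Other genes of the list stood lower. FCGBP, a mucus protein, had 96, 60, 71 and 64 counts and a ratio of 0.644 (0.462 to 0.893) in the double knockdown, with intervals under 1 in all 3 knockdowns. SCIN, an actin-severing protein, had 99, 78, 73 and 79 counts and a ratio of 0.771 (0.566 to 1.05). Both were named after their values were seen.

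After Ponatinib 3 of the 10 goblet genes tested rose and 1 fell at an adjusted p under 0.05 in edgeR, where 15.0% of all genes tested rose and 15.7% fell. Those that rose were DMBT1 (log2 fold change 0.90, adjusted p 2.25e-04), CREB3L1 (0.86, adjusted p 2.37e-06), a transcription factor of the secretory pathway, and KLF4 (0.52, adjusted p 3.23e-05), a factor of epithelial differentiation. FOXA2, a forkhead factor, fell (-0.35, adjusted p 0.00346). SPDEF and AGR2 had values of 0.40 ± 0.32 and 0.29 ± 0.45 (SE), with adjusted p of 0.378 and 0.669 in edgeR. In the double knockdown CREB3L1, KLF4 and FOXA2 had ratios of 1.29, 1.29 and 1.28.

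Ligands of the EGF receptor and inflammatory cytokines are known inducers of MUC5AC in airway cells, and 16 of 18 genes of that list had enough counts. In the double knockdown 2 were over 2-fold higher and 2 over 2-fold lower, against 3.68% and 2.09% of all genes. Those above were the EGFR ligands AREG, with 166 counts in shCtrl and 425 in the double knockdown (ratio 2.47, 2.06 to 2.98), and TGFA, with 453 and 1048 (ratio 2.24, 2.00 to 2.50). Those below were the cytokine IL6, with 805 and 243 (ratio 0.292, 0.252 to 0.337), and its receptor IL6R, with 60 and 30 (ratio 0.483, 0.301 to 0.761). A further EGFR ligand, EREG, named after its values were seen, had ratios of 2.22 with ABL1 shRNA and 1.55 in the double knockdown. With ABL1 shRNA 3 genes of the list were over 2-fold higher and 0 lower, against 3.73% and 2.98% of all genes. With ABL2 shRNA 1 was higher and 1 lower, against 3.92% and 1.99%. EGFR itself had a ratio of 0.726 (0.694 to 0.759).

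After Ponatinib 8 of the 16 genes of this list that were tested fell and 2 rose, where 15.7% and 15.0% of all genes did. HBEGF had 1244 and 1057 counts with DMSO and 183 and 135 with Ponatinib, a log2 fold change of -2.64 (adjusted p 1.39e-11 in edgeR). IL1B had 569 and 522 counts against 47 and 21 (-3.79, adjusted p 1.14e-10 in edgeR). TGFA fell by 1.22 on the log2 scale (adjusted p 2.08e-07 in edgeR), AREG by 0.82, EREG by 0.89 and EGFR by 0.68. The transcription factors SP1 and HIF1A rose, with log2 fold changes of 0.50 and 0.66. AREG and TGFA thus stood above their control in the double knockdown and below it after Ponatinib, while MUC5AC stood above its control in both. The difference between the experiments was not tested, since the knockdowns have no replicates.

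**Figure D5:**
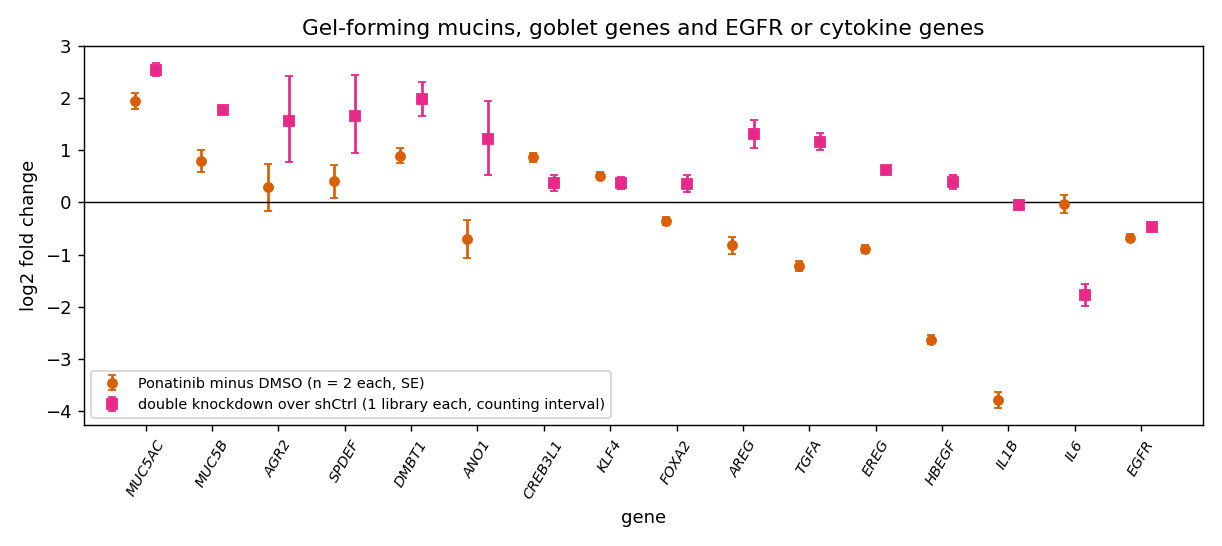
Log2 fold change of MUC5AC, MUC5B, goblet genes and EGFR or cytokine genes after Ponatinib (circles, with SE, 2 libraries a group) and log2 ratio in the double knockdown (squares, with 95% counting interval, 1 library a group). MUC5AC lies above 1.9 in both, and TGFA lies at -1.22 after Ponatinib and at 1.16 in the double knockdown. The genes drawn are a selection from their lists. The goblet genes drawn all lie above shCtrl in the double knockdown. FCGBP and SCIN, at log2 ratios of -0.63 and -0.37 there, are not drawn.

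The enzymes that build mucin sugars were examined in 2 lists. Their counts are to be read beside the shares of all genes, 3.68% over 2-fold higher and 2.09% lower in the double knockdown, and 15.0% risen and 15.7% fallen after Ponatinib. Of 20 GalNAc transferases, which place the first sugar, 14 had enough counts, and 1 was over 2-fold higher in the double knockdown, GALNT16, with 3 counts in shCtrl and 14 in the double knockdown (ratio 4.51, 1.26 to 24.5). GALNT16 had 18 and 13 counts with ABL1 shRNA and ABL2 shRNA. It reached the minimum of 10 counts on average only through the knockdown libraries, so nothing is read from its call. The 3 most abundant, GALNT1, GALNT2 and GALNT10, had ratios of 0.900, 1.15 and 0.742. After Ponatinib 1 of 14 rose at an adjusted p under 0.05, GALNT7 (0.25, adjusted p 0.0117 in edgeR). The 4 that fell, by 0.26 to 0.63 on the log2 scale, were GALNT3, GALNT6, GALNT9 and GALNT10. GALNT12 was over 2-fold higher with an adjusted p of 0.0674 in edgeR, from a low level. It had 0.795 and 0.606 TMM-normalized CPM with DMSO and 1.99 and 1.04 with Ponatinib. Of the 12 genes of sugar extension with enough counts, B3GNT3 (ratio 2.10, 1.59 to 2.81) and ST6GALNAC3 (2.90, 1.00 to 10.2) were over 2-fold above shCtrl in the double knockdown, and GCNT1, which branches core 2 glycans, was below it (0.460, 0.355 to 0.594). ST6GALNAC3 had 5, 12, 35 and 15 counts in shCtrl, ABL1 shRNA, ABL2 shRNA and the double knockdown. It too reached the minimum only through the knockdown libraries, and nothing is read from its call. After Ponatinib 2 of 11 rose, ST6GALNAC2 and ST6GALNAC3 (0.99 and 0.91), and 1, the sialyltransferase ST3GAL1, fell (-0.79, adjusted p 4.02e-06 in edgeR). The fucosyltransferase FUT2 was over 2-fold higher with an adjusted p of 0.0712 in edgeR, also from a low level. It had 0.441 and 0.808 TMM-normalized CPM with DMSO and 1.33 and 1.43 with Ponatinib.

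None of the 14 genes of granule exocytosis passed 2-fold in a knockdown, that is 0 up and 0 down in each of the 3, with a median log2 ratio of -0.05 in the double knockdown. Of all genes 3.68% to 3.92% were over 2-fold higher and 1.99% to 2.98% lower in these libraries, so nothing is read from the absence. After Ponatinib 2 of 13 rose, RAB3D, a GTPase of secretory granules, with 26 and 24 counts with DMSO and 60 and 57 with Ponatinib (1.45, adjusted p 3.58e-04 in edgeR), and MARCKS (0.28), while 1 fell, UNC13D (-0.20). Of all genes tested 15.0% rose and 15.7% fell, so the rises are at the share of all genes. Of 10 partners of the membrane mucins with enough counts, ADAM9, a membrane protease, was over 2-fold lower in the double knockdown, at 0.441 (0.419 to 0.465). There 0 were higher, against 2.09% of all genes lower and 3.68% higher. With ABL1 shRNA 2 were lower, ADAM9 and LGALS3, the galectin that binds MUC1, and with ABL2 shRNA 0, against 2.98% and 1.99% of all genes. LGALS3 had ratios of 0.458 with ABL1 shRNA and 0.507 (0.474 to 0.542) in the double knockdown. After Ponatinib 4 of these 10 rose, ERBB3, ADAM17, LGALS3 and ERBB2, and 2 fell, MMP14 and MET, beside the same shares of all genes. ERBB3, a receptor of the EGFR family, rose with a log2 fold change of 1.45 (adjusted p 3.15e-05 in edgeR). Of the 9 cluster neighbors, 1 rose after Ponatinib, DUSP8 (1.44, adjusted p 0.0262 in edgeR). It had 1.24 and 0.303 TMM-normalized CPM with DMSO, the second near the detection limit, and 1.99 and 2.47 with Ponatinib. Those that fell were 3, POLR2L, TSPAN4 and CD151, by 0.51, 0.43 and 0.30 on the log2 scale. Of all genes 15.0% rose and 15.7% fell. Genes of these lists that neither passed 2-fold in the double knockdown nor were DEGs nor led their list by level were named after their values were seen.

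The genes whose levels followed those of MUC5AC most closely were found by Pearson's r of log2 CPM over the 8 libraries, after the mean of each experiment was taken off, among 15974 genes with at least 10 counts on average. For MUC5AC these were PXMP4 (r = 0.996), ATF4P4 (0.991), ENSG00000260912 (0.986), CROCCP2 (0.984) and DNAJB12 (0.982). PXMP4 had 16.5 and 20.4 CPM with DMSO, 31.2 and 29.6 with Ponatinib, and 17.2, 34.0, 23.4 and 31.2 CPM in shCtrl, ABL1 shRNA, ABL2 shRNA and the double knockdown. The r takes no account of the size of a change. In the same shRNA libraries MUC5AC had 52.6, 337, 114 and 307 CPM. There CROCCP2 had 29.2, 35.5, 31.1 and 35.9 CPM, and DNAJB12 had 103, 129, 110 and 130 CPM. ENSG00000260912 was scarce, with 0.775 to 1.63 CPM over the 8 libraries. For MUC5B the genes with the highest r were BBIP1 (0.995), YIPF2 (0.983), KANSL3 (0.983), SLK (0.982) and NUCB2 (0.982). MUC5AC and MUC5B had an r of 0.949 with each other, and MUC5AC had 0.770 with MUC2, 0.804 with MUC6 and -0.365 with MUC1. The 8 points share libraries, depth and 2 control groups, and these r values are a description.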

How the data were processed

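RNA from LM2 cells was sequenced in 8 libraries. The authors mapped the reads to hg38 with TopHat, counted them per gene with HTSeq 0.6.0 and deposited raw counts. The annotation and the strand setting are not given in the sources used here, so reads over MUC5B and MUC5B-AS1 cannot be told apart, and in the shRNA files 6.12% to 6.32% of the reads, which fell on overlapping genes, were assigned to none. Summary lines stayed out of library sizes, and symbols were found for 54836 of 58688 gene IDs.

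Counts were converted here to CPM and, with GENCODE v44 exon lengths, to RPKM. Ponatinib was compared with DMSO in its 4 libraries by the quasi-likelihood test of edgeR 4.0.16 under R 4.3.3, after filterByExpr and TMM scaling (prior count 0.125, Benjamini-Hochberg adjustment). Each knockdown has 1 library and no test: CPM carries an exact Poisson interval and a ratio an exact binomial interval (95%, scipy 1.17.1). The Ponatinib comparison was tried on simulated counts. All 200 genes changed 4-fold were called DEGs, as were 47 unchanged genes. The other steps were not tried on simulated data. The genes named are the 7 mucin genes, list genes that are DEGs or over 2-fold in the double knockdown, the leading genes of each list by mean CPM, the cluster neighbors and the 5 genes most like MUC5AC and MUC5B. The mucin genes and the lists were chosen with earlier results of these data known. Alternatives were DESeq2 1.42.0, other filters and scalings, all 8 libraries in 1 fit, the replicate block, other reference libraries and leaving out each library.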

Additional observations from a re-analysis of the deposited data

How the results depend on the processing

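MUC5AC was the 1 mucin gene among the Ponatinib DEGs under every alternative run, and its log2 fold change lay between 1.62 and 2.33 when each library was left out in turn. The count of DEGs was 878, came to 549 with at least 10 counts required in every sample, and ranged from 854 to 1083 when each library was left out. MUC5B lost its call only without the first DMSO library and under the DESeq2 Wald test. MUC1 had 0.32 and turned to -0.0845 without the first DMSO library. The repeat numbers do not pair the libraries: deviations of libraries with the same number had a correlation of 0.0323 over 11933 genes, and with the replicate block there were 892 DEGs and log2 fold changes of 1.96 for MUC5AC and 0.81 for MUC5B. In the double knockdown 5 mucin genes were past 2-fold against shCtrl, 0 against the ABL1 shRNA library and 3 against the ABL2 shRNA library. Against ABL1 shRNA the ratio was 1.21 for MUC1, 0.815 for MUC2, 0.912 for MUC5AC and 0.872 for MUC5B, since that library was itself far from shCtrl for these genes. The cause of the other shifts was not tested. TMM factors of the shRNA libraries were 0.981 to 1.01. With 1 library per knockdown the spread between cultures is unknown, and depth limits MUC16, MUC20 and, in the Ponatinib experiment, MUC2.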

Other observations

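The scale of mucin expression differed between the control libraries of the 2 experiments. MUC5B had 3.48 and 3.78 CPM with DMSO and 172 CPM in shCtrl, which is 47.3 times the DMSO mean. MUC5AC had 9.71 CPM on average with DMSO and 52.6 CPM in shCtrl, or 5.42 times as much, and MUC1 was 7.21 times as high. MUC6 was at 0.651 times the DMSO mean. FCGBP, which was picked after its values were seen, had 3, 4, 3 and 1 counts in the DMSO and Ponatinib libraries and between 60 and 96 counts in the shRNA libraries. The levels come from 2 separate experiments, so a difference between these controls cannot be told apart from a difference between the experiments.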
